A study of Mus musculus with 12 samples.

Results

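Ank1 encodes ankyrin-1, and 2 of the 60819 probes analysed, each designed to 1 transcript, could be assigned to it. One was designed to the RefSeq transcript NM_001110783 and the other to NM_001277281, and both accessions belong to the gene Ank1 in RefSeq (gene ID 11733). The array files name no genes, so probes were identified by matching the fold and p printed for each listed transcript in the study's supplement to the fold and p computed here from the deposited log2 values, within a relative tolerance of 2e-05. This named 892 probes. For each Ank1 entry exactly 1 probe fitted, and the next nearest probe differed by a relative 0.0994 for NM_001110783 and 0.0210 for NM_001277281.

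The names came from transcripts that the study listed as changed, so both probes were chosen by measured values. NM_001110783 was listed for MI against sham in miR-150 fl/fl mice, and NM_001277281 for miR-150 cKO against miR-150 fl/fl after MI. Those contrasts are described below without a test. A test is given only where a contrast shares no array with the one that chose the probe.

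RNA came from left ventricles (LVs) of 12 C57BL/6J mice aged 13 to 15 weeks, 1 mouse per array. The miR-150 cKO mice were 14 or 15 weeks old, mostly 15, and the miR-150 fl/fl mice 13 or 14, mostly 14. Age therefore largely followed genotype, and it was not a term in any fit. The mice fell into 4 groups of 3, each with 1 male and 2 females, given by surgery (sham or MI) and by genotype (miR-150 fl/fl as control, or miR-150 cKO). All 12 mice carried the floxed miR-150 allele, and the cKO mice also carried alpha-MHC-Cre, in which the cardiomyocyte (CM) promoter alpha-MHC drives the recombinase. Mice with Cre and no floxed allele were not among these groups, so loss of miR-150 and presence of Cre cannot be told apart. Myocardial infarction (MI) was produced by tying off the left anterior descending coronary artery for good, and tissue was taken 4 weeks after surgery.

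Ankyrins are adaptor proteins that tie membrane proteins to the spectrin skeleton beneath the membrane. Ankyrin-1 is best known from red blood cells, where it holds the anion exchanger band 3 to spectrin and where its loss causes hereditary spherocytosis. The gene also gives short muscle forms that sit in the membrane of the sarcoplasmic reticulum (SR), the calcium store that wraps the contractile apparatus. The sources used here do not say which of these protein forms each probe detects.

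Levels are given as log2 of the background-subtracted probe brightness relative to the 75th percentile of the same array, so a level of 0 lies at that percentile and negative levels lie below it. Levels of different probes are not comparable, because probes differ in how strongly they bind. In whole LV tissue, fewer cells of a type and less RNA per cell cannot be told apart.

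The probe of NM_001277281 gave a clear signal, marked well above background by the scanner software on 12 of 12 arrays. Its spot brightness was 136 to 462.5 units, a ratio of 7.95 to 24.3 over the local background. The probe of NM_001110783 was dim. It was well above background on 6 of 12 arrays, with a spot brightness of 32.0 to 64.5 against a local background of 18.0 to 27.0, so the spot exceeded its surroundings by a ratio of 1.45 to 2.89.

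**Figure D1:**
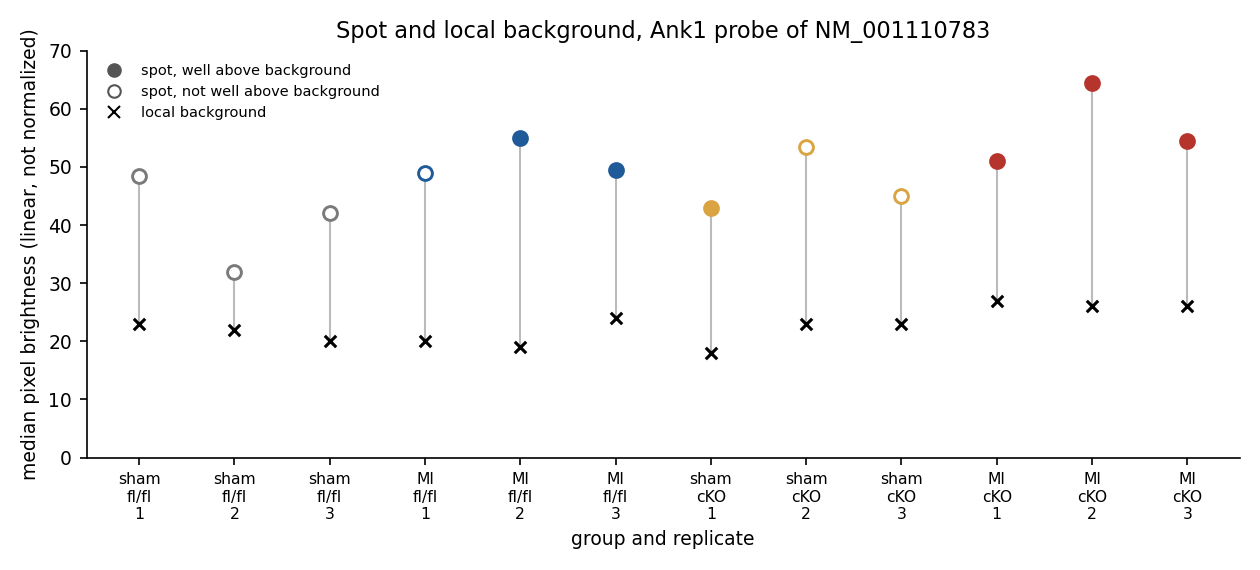
Median pixel brightness (linear, not normalized) of the spot and of its local background for the NM_001110783 probe on each of the 12 arrays; circles are spots, filled where well above background, and crosses are local background. All 3 sham miR-150 fl/fl spots are open, while all 3 MI miR-150 cKO spots are filled; the local background under the latter was 26.0 to 27.0.

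For NM_001277281 the level in sham miR-150 fl/fl LVs was −0.92, −0.37 and −1.38 in replicates 1 to 3, with a mean of −0.89 ± 0.51 (SD, n = 3). In MI miR-150 fl/fl LVs it was −1.53, −1.93 and −1.64, with a mean of −1.70 ± 0.21 (SD, n = 3). All 3 infarcted control hearts lay below all 3 sham control hearts.

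Sham miR-150 cKO LVs had NM_001277281 levels of −1.51, −0.99 and −1.27, with a mean of −1.26 ± 0.26 (SD, n = 3). After MI the cKO LVs had levels of −0.12, −0.25 and −1.16, with a mean of −0.51 ± 0.57 (SD, n = 3). Replicates 1 and 2 of the infarcted cKO hearts held the highest levels of the 12 arrays, while replicate 3 lay within the range of the sham hearts of both genotypes.

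By mean NM_001277281 level the infarcted cKO hearts came first, then the sham control hearts, then the sham cKO hearts and last the infarcted control hearts. Infarcted cKO and sham control hearts overlapped, and so did sham control and sham cKO hearts. The sham cKO and infarcted control hearts did not overlap, although the lowest sham cKO level, −1.51, was close to the highest MI miR-150 fl/fl level, −1.53. On quantile-normalized values they did overlap, at 7.08 for sham cKO replicate 1 and 7.10 for MI miR-150 fl/fl replicate 1.

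For NM_001110783 the level in sham miR-150 fl/fl LVs was −5.28, −6.30 and −5.02, with a mean of −5.54 ± 0.68 (SD, n = 3), and none of the 3 arrays was well above background. In MI miR-150 fl/fl LVs it was −4.28, −3.81 and −4.14, with a mean of −4.08 ± 0.24 (SD, n = 3), and 2 of 3 arrays were well above background. The 3 infarcted control hearts were all higher than the 3 sham control hearts, the reverse of the order seen for NM_001277281.

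In sham miR-150 cKO LVs the NM_001110783 level was −4.75, −4.03 and −4.62, with a mean of −4.47 ± 0.39 (SD, n = 3), and 1 of 3 arrays was well above background. The infarcted cKO LVs had levels of −4.48, −3.65 and −4.10, with a mean of −4.08 ± 0.41 (SD, n = 3), and 3 of 3 arrays were well above background. The sham cKO hearts and both groups of infarcted hearts overlapped with one another, and the sham miR-150 fl/fl hearts lay below all 9 of them.

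**Figure D2:**
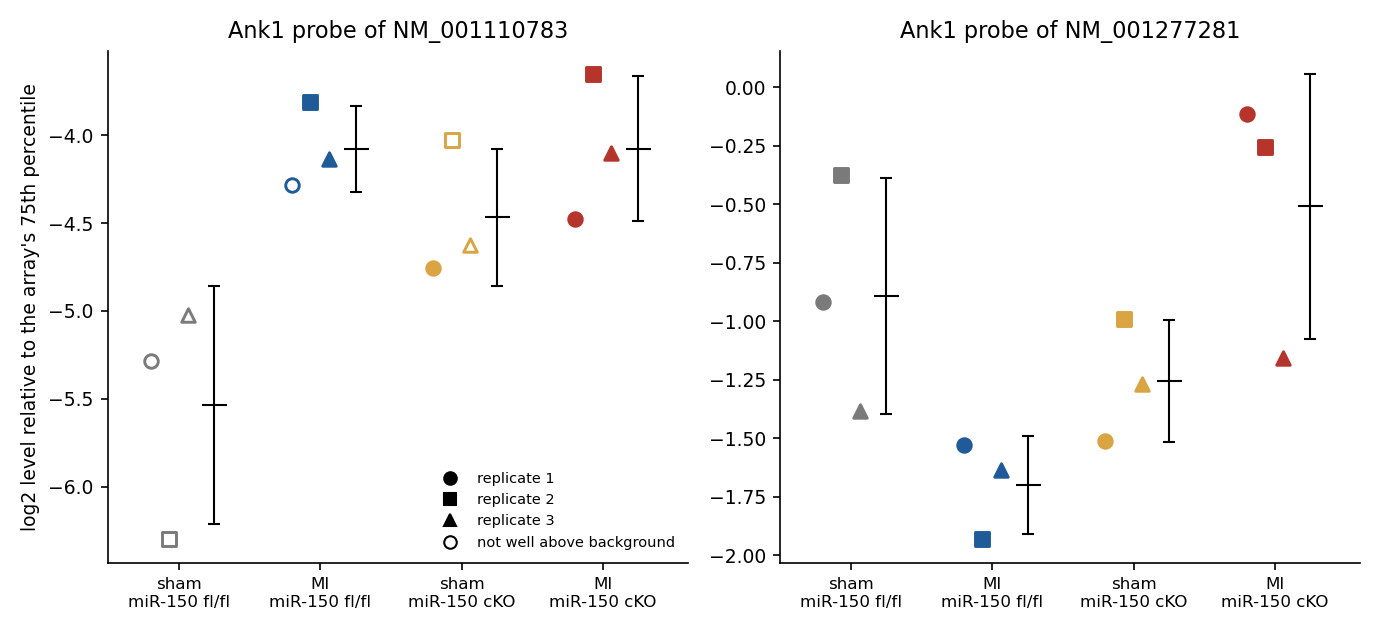
Log2 level of each Ank1 probe relative to the array's 75th percentile in the 4 groups; symbols are single mice by replicate number, open where the probe was not well above background, and bars are mean ± SD (n = 3). NM_001110783 is lowest in sham miR-150 fl/fl, at a mean of −5.54, and NM_001277281 is lowest in MI miR-150 fl/fl, at a mean of −1.70. The 2 panels have different vertical ranges and are not to be compared in level.

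The first comparison asked how infarction changed the LV transcriptome in control mice. It chose the NM_001110783 probe, which was higher in MI miR-150 fl/fl. As the probe was not well above background on any sham miR-150 fl/fl array, only a bound on its size is given. The bound was 1.26-fold, taken against the lowest signal of any probe that counted as well above background on each sham array. A higher limit would make it smaller. This bound also uses the measured MI mean, and MI replicate 1 was itself not well above background, so it is not strict. Leaving out 1 array at a time moved the bound between 1.15 and 1.36. With a background correction by normexp, which shrinks dim spots, the log2 difference was 0.17. It adds an offset of 50 units, above this probe's highest background-subtracted brightness of 37.1, and so draws its differences towards 0. Over all 54232 probes tested, 0.881% were higher past a fold of 1.5 at an unadjusted p of 0.05 in this comparison, and nothing is read from that share here, because the comparison chose the probe.

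The NM_001277281 probe fell on the other side of 0 in this comparison, with a fitted log2 difference of −0.81 (SE 0.30) and groups that did not overlap. Of all tested probes, 0.365% were lower past the same limits. Among arrays scanned together, 2 MI and 3 sham miR-150 fl/fl arrays differed by −0.84 for NM_001277281. In that batch the sham arrays lay in row 1 and the MI arrays in row 2, and MI replicate 3 was in the other batch. No row of a batch held both groups, so surgery and array position cannot be told apart directly in control mice, for either probe. With scan batch and row as a block, linked through the sham cKO arrays, the NM_001277281 difference was −1.22 (SE 0.61). The NM_001277281 value carries no test, since the MI miR-150 fl/fl arrays also served to choose that probe.

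The second comparison asked what loss of miR-150 from CMs did to the infarcted LV. It chose the NM_001277281 probe, which was higher in MI miR-150 cKO than in MI miR-150 fl/fl by 1.19 on the log2 scale (SE 0.30), or 2.28-fold, with no overlap. In this comparison 3.45% of all tested probes were higher past the limits, and again nothing is read from it. Within 1 scan batch, the 3 MI miR-150 cKO arrays exceeded the single MI miR-150 fl/fl array by 1.13. The NM_001110783 probe differed by 0.00 (SE 0.33), with overlapping groups, a value that shares the MI miR-150 fl/fl arrays with the contrast that chose it. Within that scan batch its difference was 0.06.

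The third comparison, MI against sham in miR-150 cKO mice, is a test for NM_001110783, since none of its arrays was used to choose that probe. The difference was 0.39 on the log2 scale (SE 0.33, 95% confidence interval −0.35 to 1.13), and limma gave an adjusted p of 0.524. With the spread taken from these 6 arrays alone, which did not choose the probe, limma's adjusted p was 0.429. A 2-sided exact permutation test of 3 against 3 gave p = 0.3, where the smallest p it allows is 0.1. The groups overlapped, and the interval holds 0. Across all probes tested 2.1%, or 1139, passed an adjusted p of 0.05 in this comparison, and NM_001110783 was not among them. That count fell to 22 with scan batch as a block, to 5 with scan batch and row, and to 0 in limma fits of the compared groups alone.

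The 3 MI miR-150 cKO arrays and the 3 sham miR-150 cKO arrays were scanned in different batches, which are linked only through the MI miR-150 fl/fl arrays. With scan batch as a block the NM_001110783 difference was 0.48 and limma's adjusted p was 0.934. With a background correction by normexp, which shrinks dim spots, it was −0.020 (SE 0.096). That lies within its SE of 0, so the direction of the difference is not settled. The NM_001277281 probe was higher in MI miR-150 cKO than in sham miR-150 cKO by 0.75 (SE 0.30), with overlapping groups. That value is not tested, because the MI miR-150 cKO arrays helped to choose the probe.

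The fourth comparison, miR-150 cKO against miR-150 fl/fl in sham mice, is a test for NM_001277281. The mean level was −1.26 in the cKO and −0.89 in the control hearts, a difference of −0.36 (SE 0.30, 95% confidence interval −1.04 to 0.31). limma gave an adjusted p of 0.689, or 0.821 with the spread taken from these 6 arrays alone, and the 2-sided exact permutation test gave p = 0.4. In the same comparison 0.0% of all tested probes passed an adjusted p of 0.05 by limma, although 4976 of them had an unadjusted p under 0.05. All 6 sham arrays were scanned in 1 batch, but the sham control arrays all lay in row 1. Of the sham cKO arrays replicate 1 lay in row 1, and replicates 2 and 3 in row 2. With scan batch and row as a block the NM_001277281 difference was −0.62 (SE 0.46). The NM_001277281 difference shrank to −0.10 when replicate 2 of the sham miR-150 fl/fl group was left out, and was −0.61 without replicate 3 of that group.

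For NM_001110783 the sham miR-150 cKO arrays lay above the sham miR-150 fl/fl arrays, with measured means of −4.47 and −5.54. No fold is given, because the bound against the background limit is under 1. On quantile-normalized values the groups of this comparison overlapped, so the separation rests on the scaling. Percentages of probes well above background ran from 74.1% to 90.3% over the 12 arrays, and both ends of that range are sham miR-150 cKO arrays.

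**Figure D3:**
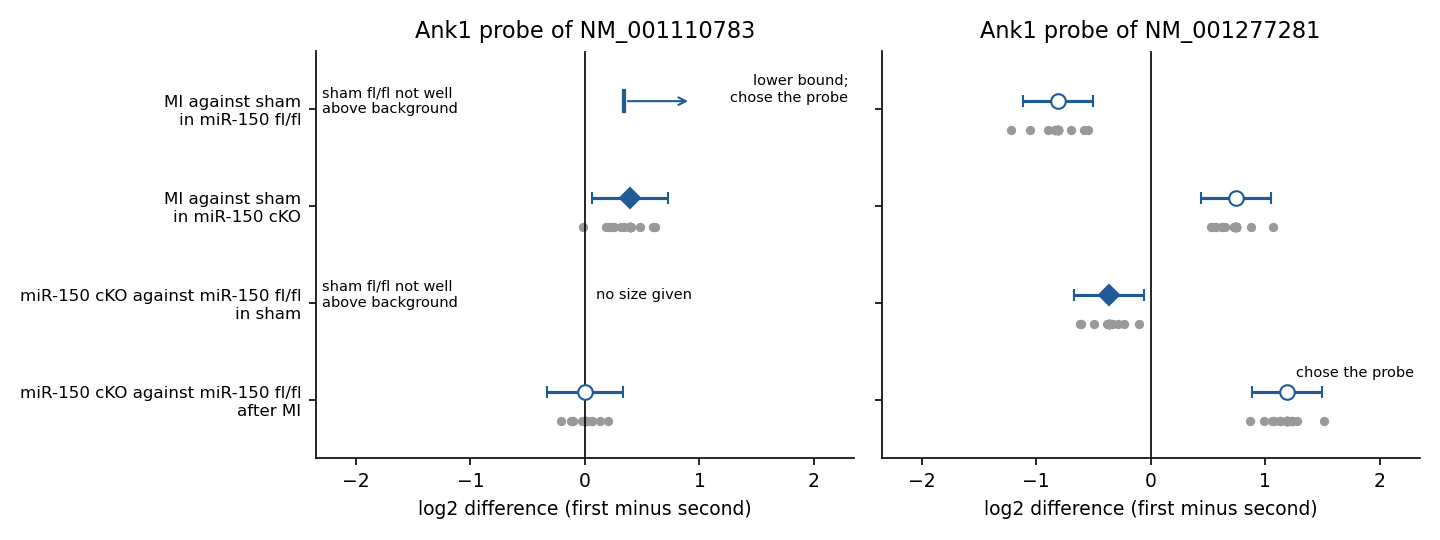
Fitted log2 differences (first group minus second) of both Ank1 probes in the 4 comparisons; large symbols with bars are the difference ± SE, filled diamonds are the tested contrasts and open circles are values without a test, and small grey dots are the same difference under each alternative setting. For NM_001110783 no difference is drawn against sham miR-150 fl/fl, where it was not well above background. An arrow starts at the lower bound of 0.34, which is 1.26-fold. That bound is not strict, as MI miR-150 fl/fl replicate 1 was itself not well above background. For NM_001277281, MI against sham lies at −0.81 in control and at 0.75 in cKO hearts.

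Side by side, MI against sham gave −0.81 in control and 0.75 in cKO mice for NM_001277281, contrasts that share no array with each other but each share arrays with the choosing contrast. For NM_001110783 the value in control mice is only a bound, so the corresponding pair is not set side by side. The effect of MI in cKO minus that in control mice was 1.55 (SE 0.43) for NM_001277281. The MI and sham miR-150 cKO arrays were scanned in different batches, and with scan batch as a block the value was 1.49 (SE 0.55). This interaction includes the arrays that chose the probe and carries no test. It ranged from 1.15 to 1.88 over the alternative settings and with each array left out.

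Sex is given as values only, because the p that chose each probe drew on the spread within groups on 6 of the 12 arrays. Within groups the male was higher than the females by 0.34 for NM_001110783 (SE 0.24) and by 0.25 for NM_001277281 (SE 0.23), on the log2 scale. The male lay above the mean of the females in 3 of 4 groups for each probe.

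The 2 Ank1 probes did not move together from mouse to mouse. Over the 12 arrays Pearson's r between them was −0.27 and Spearman's rho was −0.16, and after subtraction of the group means r was −0.39. These are descriptions over arrays that share groups and scan batches. As NM_001110783 was well above background on only 6 of 12 arrays, they cannot show whether the 2 transcripts move together.

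**Figure D4:**
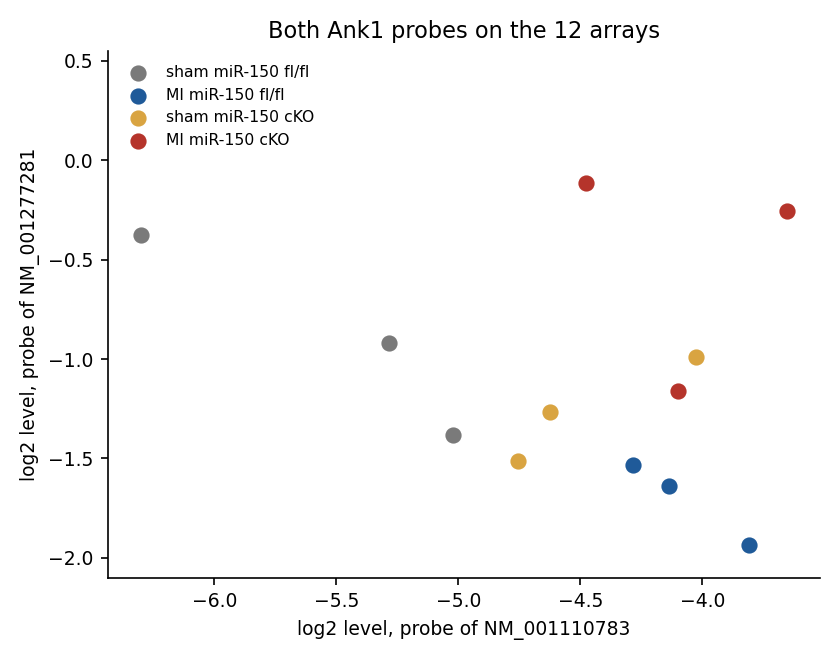
Log2 level of the NM_001277281 probe (vertical) against that of the NM_001110783 probe (horizontal), both relative to the array's 75th percentile, with 1 point per mouse coloured by group. The points do not follow a common line (r = −0.27 over 12 arrays): the 3 MI miR-150 fl/fl hearts are lowest on the vertical axis, and the 3 sham miR-150 fl/fl hearts are lowest on the horizontal axis. NM_001110783 was well above background on only 6 of 12 arrays.

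Likeness of pattern was measured by Pearson's r over the 12 arrays against 886 named probes that passed the filter. NM_001277281 had 9 of them with r over 0.8. Nearest was Cacnb4, a beta subunit of voltage-gated calcium channels, with r = 0.90. Then came Fam69b (0.86), the sulfotransferase Sult4a1 (0.85), the neuroendocrine protein gene Resp18 (0.85) and the cyclin-dependent kinase Cdk14 (0.82).

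After subtraction of the group means, r between NM_001277281 and these 5 genes was 0.74, 0.64, 0.81, 0.79 and 0.84, in the same order. The 5 were picked for the highest r over these same arrays, which includes those deviations. High values are therefore favoured by the choice, and nothing is read from them. Most opposed were Timeless, a replication fork and circadian factor (−0.83), the pore-forming protein gene Gsdmd (−0.80) and the membrane protein gene Tmem204 (−0.79). All 8 were named from the same contrast that chose the Ank1 probe, so a shared group pattern is built in.

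NM_001110783 had 1 named probe with r over 0.8, that of Sos1, a Ras guanine nucleotide exchange factor (0.84). Bin2 (0.79), the secreted matricellular protein gene Wisp2 (0.79), the C-type lectin gene Clec4n (0.79) and the procollagen peptidase gene Adamts2 (0.78) followed. After subtraction of the group means these fell to between 0.22 and 0.61. Most opposed were Apol8 (−0.85), the axonemal dynein gene Dnah7b (−0.83) and the antimicrobial peptide gene Camp (−0.83), and all 8 were named from contrasts that hold the sham miR-150 fl/fl arrays.

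Of 24 other genes of the ankyrin and spectrin skeleton, 3 had a named probe. These were Ank3, which encodes ankyrin-G, Epb4.1, which encodes protein 4.1R of the red cell skeleton, and its relative Epb4.1l1. In MI against sham in miR-150 cKO, 0 of the 3 passed a fold of 1.5 at an unadjusted p of 0.05 in either direction, where 4.6% of all tested probes were higher and 1.75% lower. Their log2 differences were 0.45 for Ank3, −0.11 for Epb4.1 and 0.54 for Epb4.1l1. In sham miR-150 cKO against sham miR-150 fl/fl, Ank3 was lower by the same limits (−0.68), where 2.12% of all tested probes were, and that contrast is the one that named Ank3.

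Of 20 other genes on a list drawn up for the SR and Z-disc, the part of the muscle cell where the short forms of ankyrin-1 lie, 5 had a named probe. The list is broader than these structures and also holds Cul3 and Slc8a1. In MI against sham in miR-150 cKO, 1 of 5 was higher past the limits, Atp2a2 (0.72), the SR calcium pump of heart muscle. Asph (−0.59), which gives the SR protein junctin among other products, was lower past them. Of all tested probes 4.6% were higher and 1.75% lower by these limits, and the 2 groups were scanned in different batches. Tcap, the titin cap of the Z-disc, differed by −0.56, short of a fold of 1.5. It was the only 1 of the 5 to pass an adjusted p of 0.05 by limma (0.042), where 2.1% of all tested probes did. The number of such calls over all probes fell to 0 in fits of the compared groups alone. Cul3, a ubiquitin ligase scaffold (0.65), and Slc8a1, the sodium-calcium exchanger (−0.49), did not pass the limits of fold and unadjusted p. The median difference over the 5 was −0.49, and over all probes tested it was 0.06.

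In sham miR-150 cKO against sham miR-150 fl/fl, 0 of the 5 named genes of the SR and Z-disc list passed the limits in either direction. Of all tested probes 0.636% were higher and 2.12% lower, and the median difference of the 5 was −0.28. All members of both lists were named from contrasts that share arrays with MI against sham in miR-150 cKO, so those counts are not independent evidence. Of the sham genotype comparison this holds only for Ank3, which it named. Epb4.1, Epb4.1l1 and the 5 genes of the SR and Z-disc list were named from miR-150 cKO against miR-150 fl/fl after MI. That contrast shares no array with the sham comparison.

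Markers of the cells in the tissue moved as well. CM markers had 3 of 10 genes named, and their 4 probes, for Myh7, Tnnt2 and Nppa, were well above background on all 12 arrays. Their summed level, in multiples of the array's 75th percentile, was 40.04 to 102 in sham and 72.7 to 78.8 in infarcted control hearts, and 116 to 335 in sham and 368 to 456 in infarcted cKO hearts. Such a sum follows its brightest probes. In miR-150 cKO against miR-150 fl/fl after MI, Myh7 (3.27) and Nppa (1.65), both also CM stress genes, were higher, while the log2 differences of the 2 Tnnt2 probes were −0.55 and −0.55. All 4 CM probes were named from that contrast, so these values are not independent evidence. Fibroblast markers had 5 of 10 genes named. The sum of these was 8.61 to 18.9 in sham miR-150 fl/fl, 42.1 to 43.9 in MI miR-150 fl/fl, 26.7 to 36.9 in sham miR-150 cKO and 36.0 to 71.2 in MI miR-150 cKO. The order of sham miR-150 fl/fl below the other 3 groups is also that of NM_001110783, and the part of fibroblasts in its values was not tested. All 5 fibroblast probes were named from MI against sham in miR-150 fl/fl, the contrast that chose NM_001110783. A shared low level in sham miR-150 fl/fl is therefore built in.

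Leukocyte markers had 4 of 11 genes named, with summed levels of 15.0 to 28.5 in sham miR-150 fl/fl, 28.7 to 35.6 in MI miR-150 fl/fl, 32.0 to 44.6 in sham miR-150 cKO and 23.3 to 36.9 in MI miR-150 cKO. All 4 were named from miR-150 cKO against miR-150 fl/fl in sham mice, so a low level in sham miR-150 fl/fl is built in. Fast skeletal muscle markers had 2 of 13 genes named, Tnnt3 and Mybpc2, and their sum, nearly all from Mybpc2, was 14.0 to 22.7 in MI miR-150 cKO. It was 4.52 to 8.04 in sham miR-150 fl/fl, 6.01 to 8.21 in the infarcted control and 5.70 to 17.3 in the sham cKO hearts, and its part in the Ank1 values was not tested. In miR-150 cKO against miR-150 fl/fl after MI, Mybpc2 differed by 1.38 and Tnnt3 by −0.56 (SE 0.48). That contrast is also the one that named Mybpc2. Elsewhere both were higher, Mybpc2 by 0.87 and Tnnt3 by 1.27 in sham cKO against sham control hearts. MI against sham gave 0.31 and 2.24 in control and 0.83 and 0.41 in cKO hearts, in the same order. Tnnt3 was well above background on only 7 of 12 arrays, and was named from contrasts that hold the sham miR-150 fl/fl arrays. None of 20 erythroid genes had a named probe, so no red cell marker could be set beside these levels.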

How the data were processed

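Spot intensity of the 12 arrays was deposited by the authors as Agilent Feature Extraction 11.0.1.1 wrote it: linear, background-subtracted, with no scaling across arrays. A second deposited table holds the authors' log2 values, which served here to name probes and as an alternative. The headers give build mm9 and the RefSeq table is of another build, so no coordinates are given.

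Intensities were taken to log2 and each array's 75th percentile was subtracted. The filter kept 54232 of 60819 probes, those marked well above background on 3 or more arrays. limma 3.58.1 in R 4.3.3 fitted 4 group means over all 12 arrays, with sex added for the sex effect, which was planned as a test and is given without one because the choice of probes used part of that spread, and p-values were adjusted by Benjamini-Hochberg over all probes tested. The fit was checked on simulated data. Figures were drawn with matplotlib 3.10.9. Replicates were separate mice, and 8 residual degrees of freedom limit the precision.

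Genes named are the Ank1 probes, the 5 most and 3 least alike named probes for each, and named members of the gene lists. The members and lists were chosen with earlier results of these data known. One gene of the SR and Z-disc list is not reported here. Alternatives were quantile and normexp processing, the authors' values, other filters, fits to the compared groups only, the methods' unpaired test, sex, scan batch, row and replicate as terms, and each array left out. The study's own folds and p served only to name probes.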

Additional observations from a re-analysis of the deposited data

How the results depend on the processing

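The 2 tests were refitted under alternatives 45 times in all, and 0 of these fits passed an adjusted p of 0.05 (limma, or the methods' unpaired test). The direction was kept in 44. The exception was NM_001110783 in MI against sham in miR-150 cKO, which was −0.020 (SE 0.096) with normexp. Other alternatives gave it 0.18 to 0.61, with adjusted p of 0.383 to 0.934 over all of them. NM_001277281 in sham miR-150 cKO against sham miR-150 fl/fl ranged from −0.62 (scan batch and row as a block) to −0.10 and had a lowest adjusted p of 0.654. Leaving out each array gave −0.61 to −0.10 for this difference and, for the sex effect, 0.21 to 0.56 for NM_001110783 and 0.14 to 0.37 for NM_001277281.

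Mice of the same replicate number were treated as unpaired. Deviations of same-numbered arrays correlated at −0.27 to 0.27 (median 0.04), over 0.1 in 6 of 18 pairs. Arrays of different number correlated at −0.41 to 0.34 (median 0.0005), over 0.1 in 7 of 36 pairs. A weak pairing is therefore not excluded. With the replicate number as a block the tested differences were 0.39 and −0.36, as without it, and the sex effects were 0.52 for NM_001110783 and 0.06 for NM_001277281.

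The dim NM_001110783 probe is not among those well above background on all 12 arrays, so that filter gave it no value. Background counts depended on the setting: adjusted calls for MI against sham in miR-150 cKO were 1139, but 22 with scan batch as a block, 5 with scan batch and row, 0 with the replicate block and in limma fits of the compared groups only, 0 by the methods' unpaired test, and from 0 to 4037 with 1 array left out, the last without sham miR-150 cKO replicate 1, and those for the sham genotypes rose from 0 to 302 without that array.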
